A study of Mus musculus with 12 samples.

Results

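Genes whose RNA level in C2C12 myotubes lay above, or below, that in all 3 other groups of the series were examined: C2C12 myoblasts, adult extensor digitorum longus (EDL) muscle and adult soleus muscle. A gene was called a myotube peak if its level was higher in myotubes than in each of the other groups, by at least 1 log2 unit and with a limma adjusted p under 0.05 in each of the 3 contrasts. A trough was lower in myotubes by the same rule. Of 18869 genes tested, 973 were peaks (5.16%) and 702 were troughs (3.72%). Peaks and troughs are thus defined by the contrasts themselves, and the counts and values below describe them. The myotubes were the 3 myotube arrays of 12 arrays in all.

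C2C12 is a mouse myoblast line that fuses into multinucleated myotubes when serum is lowered. The myoblasts were collected while dividing, at about 50% confluence in medium with 10% fetal bovine serum. The myotubes came from cultures that had reached 90% confluence and were then kept for 96 h in medium with 2% horse serum. They were detached with trypsin and returned to proliferation medium for 30 min, so that mononucleated cells could settle, and the cells still afloat, mostly myotubes, were taken for RNA. EDL, a fast glycolytic muscle, and soleus, a slower oxidative one, came from male CD1 mice of 3 months, with the muscles of both hind limbs of a mouse combined. Each group had 3 arrays. Both culture groups come from 1 cell line, and the labels do not say that its 3 samples were separate cultures, so p-values measure the spread between these samples, which may be technical. The cultures and the muscles also differ in strain and in handling, and whole muscle holds vessels, nerve, connective tissue and blood beside fibres.

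Muscle fibres form when dividing myoblasts leave the cell cycle, switch on myogenin and fuse. The young fibre first makes embryonic and cardiac forms of contractile proteins and spreads acetylcholine receptors with a gamma subunit over its whole membrane. Innervation and maturation later replace these with adult fast or slow isoforms and restrict the receptor, now with an epsilon subunit, to the synapse. A myotube in culture has no nerve, no load and no blood supply.

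Levels are scaled log2 intensities: the log2 of the spot signal, brought to the same 75th percentile on every array. The lowest correlation between replicates of a group was 0.98. Between 58.0% and 73.2% of the spots of an array were well above background. Replicate number is the slide, each slide held 1 array of every group, and slide 1 was scanned on another day. Each group also kept 1 position on all slides, which leaves position and group impossible to separate. The distance of a gene from the others is given as its smallest difference, that between myotubes and the nearest other group. Of the genes tested, 3569 were called higher in myotubes than in myoblasts (18.9%) and 3117 lower (16.5%). Against EDL 3746 were higher (19.9%) and 5254 lower (27.8%), and against soleus 3673 were higher (19.5%) and 4874 lower (25.8%).

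By the fitted means, the median peak lay 1.76 log2 units, or 3.38-fold, above its nearest other group, and 411 peaks lay at least 2 log2 units above it, 203 at least 3 and 100 at least 4. The nearest group was the myoblasts for 468 peaks, EDL for 267 and soleus for 238. The median trough lay 1.55 log2 units below its nearest other group, or 2.94-fold, with 210 at least 2 log2 units below, 48 at least 3 and 11 at least 4. Myoblasts were nearest for 391 troughs, EDL for 163 and soleus for 148. All 3 myotube arrays lay above all 9 others in 966 of the 973 peaks, and in 2459 of all genes tested (13%). They lay below them in 684 of the 702 troughs, and in 1949 of all genes tested (10.3%). The rule selects for such separation on the same arrays, so the counts among peaks and troughs follow largely from it. By the order of the means alone, myotubes were highest in 3814 genes (20.2%) and lowest in 4574 (24.2%).

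In 277 peaks and 183 troughs at least 1 group had no array well above background, so the distance from that group is a bound. With such groups set at their bound, 898 peaks and 567 troughs still met the rule. Scaling the arrays by their spike-in RNA in place of the 75th percentile moved the median of all genes by -0.36 log2 units against myoblasts, 0.95 against EDL and 1.20 against soleus. It gave 1009 peaks and 370 troughs, so that peaks were 73.2% of both classes against 58.1% here. Quantile normalization moved the same medians by -0.04, 0.18 and 0.16 log2 units, and the authors' values by -0.01, 0.14 and 0.12. Unless stated, the peaks and troughs of the lists and the leading ones below kept their direction under each of the 4 other scalings and background corrections. Settings in which a gene could not be fitted are left out for that gene. Of 47 named genes that were neither, the rank of the myotube mean moved in 16 with normexp background correction. It moved in 15 with spike-in scaling, 5 with quantile normalization and 4 with the authors' values. Medians of lists and counts by the order of the means were not recomputed in these settings. The authors' values could be fitted for 43 of 53 peaks and 42 of 43 troughs named by rule, the exceptions being Isx, Slc44a4, Pkhd1, 2310043M15Rik, Chst13, Tcp11x2, Slc6a19, 2310002F09Rik, Atp6v1c2, Fgf21 and Msc.

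**Figure D1:**
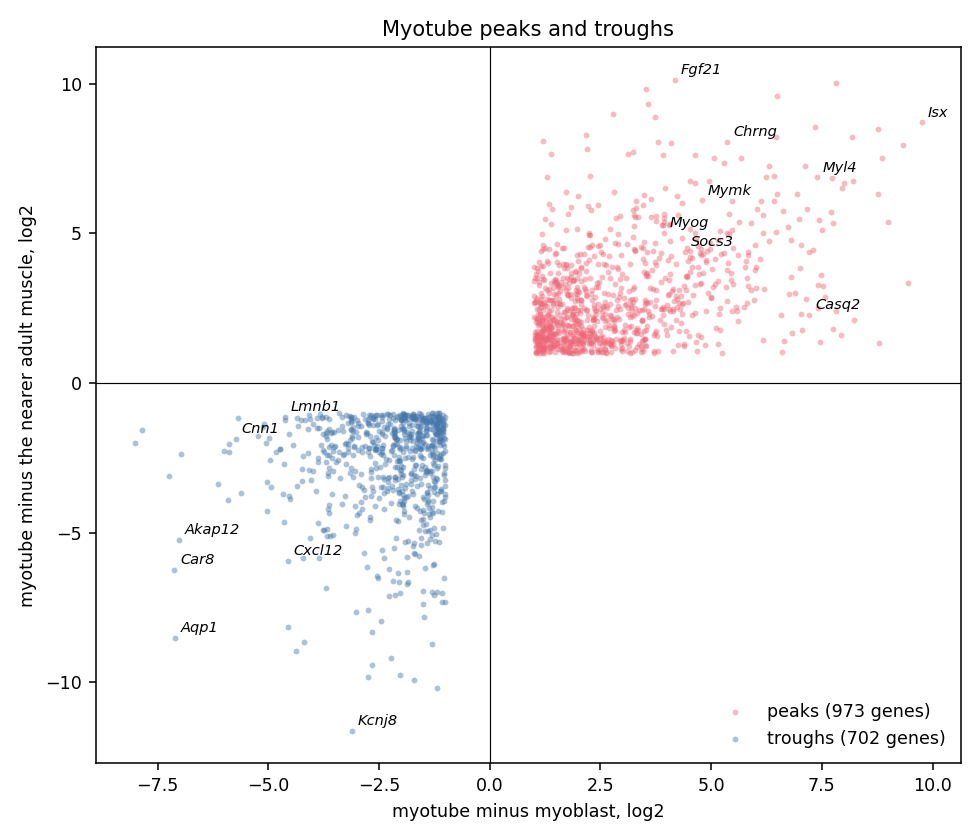
Each point is a gene; the horizontal axis is its myotube mean minus its myoblast mean and the vertical axis its myotube mean minus that of the nearer adult muscle, both in log2 units. The 973 peaks lie at upper right and the 702 troughs at lower left, with the rule's limit of 1 as their inner edges; Otud7a lay 7.52 above its nearest group and Aqp1, labelled, 7.12 below it, while distances from groups below background, as for Isx and Kcnj8, are fitted values and not measured.

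Peaks and troughs differed in how the adult muscles stood against the myoblasts, but the rule had used these same means. The shares describe the selected genes and are not a separate result. Both muscles lay above myoblasts in 163 peaks (16.8%) and in 225 troughs (32.1%), against 27.9% of all genes. Both lay below myoblasts in 240 peaks (24.7%) and in 98 troughs (14%), against 21.8% of all genes. In 400 peaks (41.1%) and 283 troughs (40.3%) neither muscle differed from myoblasts by the same limits. Soleus was called above EDL in 96 peaks (9.9%) and below it in 43 (4.4%), against 5% and 4.7% of all genes.

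The neuromuscular synapse held the largest share of peaks among the gene lists. Of 16 genes for the acetylcholine receptor and the apparatus that gathers it under the nerve ending, 8 were peaks (50%) and none was a trough. The counts of this and the later lists stand beside 5.16% peaks and 3.72% troughs of all genes tested. At these shares a list of 30 genes would hold few of either. Myotubes had the highest mean in 11 of the 16. The median difference of the list was 1.80 log2 units from myoblasts, 1.82 from EDL and 1.56 from soleus, beside 0.04, -0.21 and -0.14 for all genes tested. The 8 peaks were 4 receptor subunits (Chrng, Chrnd, Chrna1, Chrnb1), the kinase Musk, its agrin-binding co-receptor Lrp4, its adaptor Dok7, and utrophin (Utrn), a dystrophin relative of the synaptic membrane.

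Chrng encodes the gamma subunit of the fetal receptor. Its level was 16.65, 16.90 and 16.93 in the myotubes and 11.34, 11.54 and 11.50 in the myoblasts. In EDL it was 6.98, 7.01 and 7.36 and in soleus 8.64, 8.74 and 8.91. No group overlapped another, and the order was myotube, myoblast, soleus, EDL. Myotubes lay 5.37 log2 units (SE 0.13) above myoblasts, which is 41.3-fold (adjusted p = 2.1e-10), and 9.71 above EDL.

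Chrnd, the delta subunit, had levels of 13.04, 13.31 and 13.18 in myotubes, 9.24, 9.26 and 9.17 in myoblasts, 6.41, 6.53 and 6.59 in EDL, and 6.71, 6.73 and 6.58 in soleus. The muscles overlapped each other and lay below both culture groups. The distance to myoblasts was 3.95 log2 units (SE 0.09; 15.5-fold; adjusted p = 1.31e-10). Chrna1, which carries most of the transmitter-binding site, was at 17.46, 17.54 and 17.38 in myotubes, 15.60, 15.89 and 15.91 in myoblasts, 12.42, 12.51 and 12.53 in EDL and 13.82, 14.11 and 13.95 in soleus. Its myoblasts were already above both muscles, and the step to myotubes was 1.66 log2 units (SE 0.11; 3.16-fold). Chrnb1 stood at 13.16, 12.27 and 12.47 in myotubes against 10.92, 10.12 and 10.31 in myoblasts, and was lower in soleus than in EDL by 1.25. By contrast Chrne, the epsilon subunit of the adult receptor, was neither: its means were 8.80 ± 0.42 in myoblasts, 10.26 ± 0.23 in myotubes, 12.22 ± 0.21 in EDL and 10.86 ± 0.19 in soleus (SD, n = 3).

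Musk, the kinase that organises the receptor clusters, was at 9.68, 10.20 and 9.15 in myotubes, 6.61, 6.04 and 5.81 in myoblasts, 5.09, 5.52 and 5.39 in EDL, and 7.21, 6.69 and 6.96 in soleus. Soleus was its nearest group, 2.72 log2 units below the myotubes (SE 0.28; adjusted p = 8.48e-06), and the 2 muscles did not overlap. Lrp4 lay 1.57 log2 units above soleus, Dok7 1.32 above soleus and Utrn 1.25 above myoblasts. The myoblast, EDL and soleus arrays of Dok7 overlapped one another, between 13.15 and 13.56, below myotube values of 14.44 to 14.88. Under spike-in scaling 6 of the 8 peaks of the list were still called, and with normexp background correction 7; all 8 kept myotubes highest. Those lost were Musk with normexp, at 1.32, and Dok7 and Utrn with spike-in scaling, Utrn at 0.89.

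Myogenic regulators of the MyoD family bind E-boxes, and CAGCTG is one such sequence. The letters CAGCTG, which read the same on both strands, were searched in RefSeq windows (GRCm38.p6) of 250 bases before to 50 after each gene's start. They were found in 178 of 839 windows of peaks (21.2%), 91 of 526 windows of troughs (17.3%) and 2455 of 15254 windows of all genes tested (16.1%). Some genes have several windows, and windows were at hand for 645 peaks, 400 troughs and 12031 genes in all. The MEF2 consensus, searched on both strands, was in 1.91% of the peak windows, 0.951% of the trough windows and 1.93% of all. At least 2 copies of CAGCTG were in 2.5% of the peak windows, 2.09% of the trough windows and 1.65% of all. The 250 bases before the start of 4 peaks of the synapse and sarcomere lists are shown because they hold the motif, in capitals, so that its place can be seen beside their levels; they were chosen for it, and a match describes the letters, not a bound site or a cause. They are Chrng (chr1:87205561-87205810, plus strand), Chrna1 (chr2:73580339-73580588, minus strand), the first of the Tnnt2 starts (chr1:135836084-135836333, plus strand) and Mybph (chr1:134193198-134193447, plus strand), each written 5′ to 3′ along the gene.
Chrng: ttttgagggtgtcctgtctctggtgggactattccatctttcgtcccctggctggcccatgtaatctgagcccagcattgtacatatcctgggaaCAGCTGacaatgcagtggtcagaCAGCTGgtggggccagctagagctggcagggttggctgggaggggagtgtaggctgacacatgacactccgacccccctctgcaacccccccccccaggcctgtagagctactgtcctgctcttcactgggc
Chrna1: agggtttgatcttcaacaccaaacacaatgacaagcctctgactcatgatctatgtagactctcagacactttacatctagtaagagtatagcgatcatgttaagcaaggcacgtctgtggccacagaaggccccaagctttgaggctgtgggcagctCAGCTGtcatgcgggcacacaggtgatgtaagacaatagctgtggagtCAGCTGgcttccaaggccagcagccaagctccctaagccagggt
Tnnt2: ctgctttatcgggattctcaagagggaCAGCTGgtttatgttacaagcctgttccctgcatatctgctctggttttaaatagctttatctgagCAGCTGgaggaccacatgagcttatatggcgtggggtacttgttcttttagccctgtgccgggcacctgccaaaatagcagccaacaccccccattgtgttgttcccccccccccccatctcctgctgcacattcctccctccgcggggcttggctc
Mybph: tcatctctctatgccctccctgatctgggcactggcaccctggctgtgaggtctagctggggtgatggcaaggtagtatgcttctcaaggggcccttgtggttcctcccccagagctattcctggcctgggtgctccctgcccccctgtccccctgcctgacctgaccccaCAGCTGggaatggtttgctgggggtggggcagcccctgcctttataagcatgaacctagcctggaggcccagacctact
Chrng, Chrna1 and this Tnnt2 start hold 2 copies each and Mybph 1. The second Tnnt2 window and those of Myog and Myh3, also peaks, hold none, which says only that these letters are not there.

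Among 16 measured genes for embryonic, neonatal and cardiac isoforms of sarcomere proteins, 6 were peaks and none was a trough. They were the embryonic heavy chain Myh3, the atrial and embryonic light chain Myl4, myosin binding protein H (Mybph), cardiac troponin T (Tnnt2), cardiac troponin I (Tnni3) and cardiac actin (Actc1). The median difference of the list was 6.22 log2 units from myoblasts, 1.38 from EDL and -0.28 from soleus. Soleus normally makes slow fibre proteins that the heart also uses, and 6 of the 16 were called lower in myotubes than in soleus.

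Myl4 was at 17.88, 17.95 and 17.78 in myotubes, 10.42, 10.51 and 10.51 in myoblasts, 10.91, 10.92 and 11.05 in EDL, and 10.97, 10.90 and 11.14 in soleus. The muscles overlapped each other and lay just above the myoblasts. Myotubes lay 6.87 log2 units above soleus, the nearest group (SE 0.09; 117-fold; adjusted p = 4.33e-12).

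Mybph was at 16.60, 16.77 and 16.75 in myotubes, 10.27, 10.51 and 10.46 in myoblasts, 9.44, 9.43 and 9.53 in EDL, and 6.90, 6.97 and 7.20 in soleus. The 4 groups did not overlap, and soleus lay 2.44 below EDL. Its distance to myoblasts was 6.30 log2 units (SE 0.10; 78.6-fold; adjusted p = 1.77e-11). Myh3 was at 17.70, 17.63 and 17.66 in myotubes, 11.72, 11.52 and 11.22 in myoblasts, 13.10, 12.67 and 12.20 in EDL, and 11.74, 11.64 and 11.69 in soleus. EDL was nearest, 5.01 log2 units below (SE 0.20; 32.2-fold), and its arrays spread more than those of the other groups. Tnnt2 was at 17.43, 17.44 and 17.43 in myotubes, 13.06, 13.26 and 13.31 in myoblasts, 10.71, 10.74 and 10.86 in EDL, and 11.05, 11.09 and 11.41 in soleus. Myoblasts were the second highest group for this gene, 4.22 log2 units below the myotubes (SE 0.11; 18.7-fold).

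The cardiac genes Tnni3 and Actc1 had smaller distances, 1.66 and 1.36 log2 units. Actc1 was at 15.65, 15.86 and 15.88 in myotubes, and its other 9 arrays ran from 13.31 to 14.67, with all 3 other groups overlapping. The neonatal heavy chain Myh8 was not a peak by its brightest probe, with means of 18.03 ± 0.01 in myotubes, 19.55 ± 0.15 in EDL and 19.39 ± 0.19 in soleus (SD, n = 3). Myosin heavy chain genes, like actin genes, are near-identical over long stretches, 2 of the 3 kept probes of Myh8 had myotubes highest, and the value of this gene is uncertain.

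None of 18 adult fast sarcomere genes was a peak or a trough, and in all 18 the myotube mean lay between those of other groups. The adult fast heavy chain Myh1 had means of 11.56 ± 0.09 in myoblasts, 17.97 ± 0.06 in myotubes, 19.27 ± 0.33 in EDL and 18.68 ± 0.20 in soleus (SD, n = 3). Of 30 genes for sarcomere assembly and chaperones, 1 was a peak: Ankrd1, a stretch-responsive ankyrin repeat protein, at 16.98, 17.04 and 16.98 in myotubes and 15.88, 15.93 and 15.70 in myoblasts. Its distance was 1.17 log2 units (SE 0.10), and it was 0.80, under the limit, with spike-in scaling. Among 23 genes for calcium handling, Ryr3 and Casq2 were peaks and the inositol trisphosphate receptor Itpr1 was a trough, though not with normexp (-0.93) or spike-in scaling (-0.71). Ryr3, the ryanodine receptor isoform of immature muscle, was at 11.24, 11.38 and 11.34 in myotubes and 7.97, 8.02 and 8.24 in myoblasts, with the muscles at 5.44 to 6.68. Its 6 kept probes did not agree, 4 having myotubes highest. Casq2, the slow and cardiac calsequestrin, was at 16.12, 16.07 and 16.16 in myotubes, 13.77, 13.85 and 13.87 in soleus, 10.34, 10.33 and 10.34 in EDL, and 9.0, 8.76 and 8.94 in myoblasts. It stood 2.29 log2 units above soleus (SE 0.08; 4.88-fold), and soleus stood 3.49 above EDL. Ryr1, the main release channel of adult muscle, was neither, with means of 14.56 ± 0.12 in myotubes and 17.23 ± 0.12 in EDL (SD, n = 3).

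**Figure D2:**
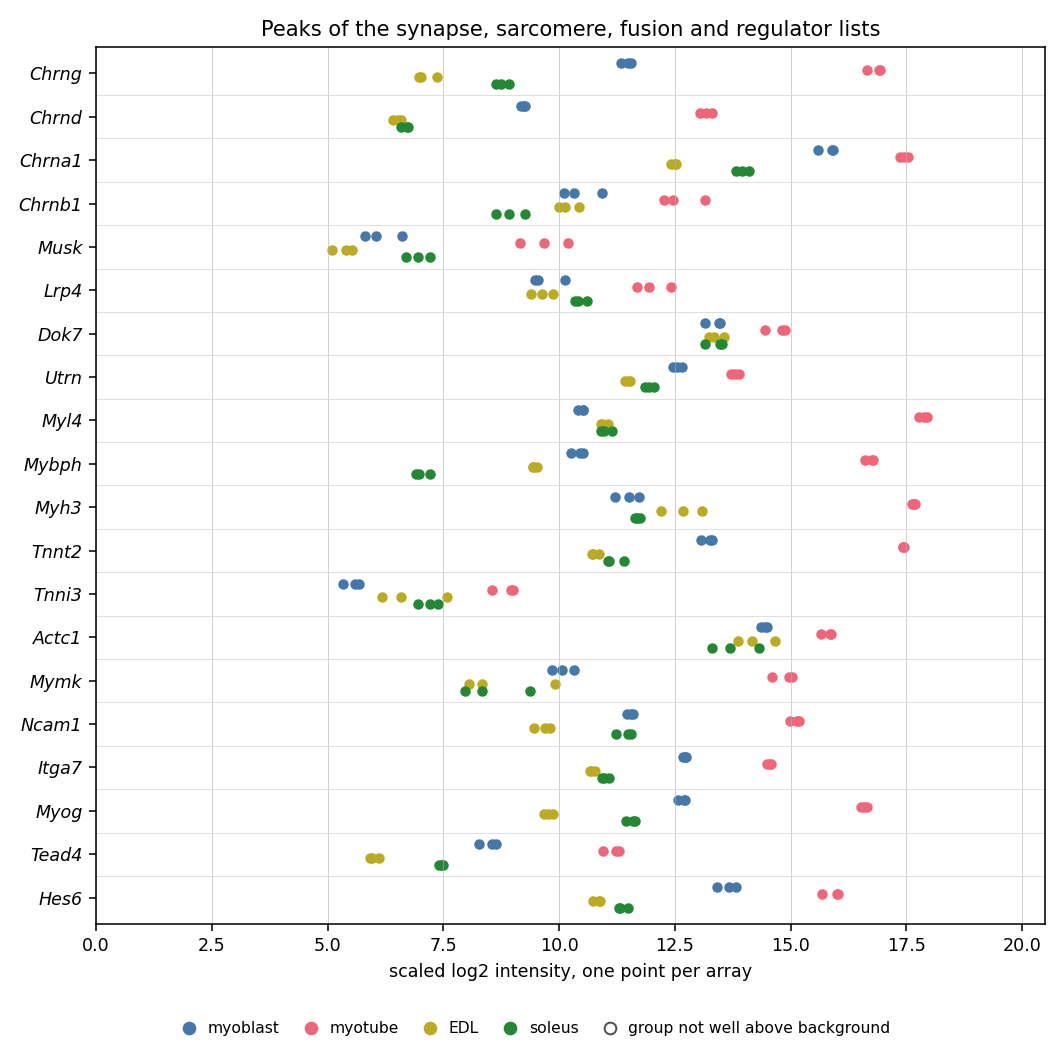
Each row is a peak of the synapse, sarcomere, fusion or regulator lists; points are single arrays, coloured by group, on the scaled log2 intensity axis. In every row the 3 myotube points lie to the right of the other 9, with distances between the means from 1.25 log2 units in Utrn to 6.87 in Myl4.

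The machinery of fusion and the regulators of myogenesis gave a mixed picture. Among 18 measured genes for fusion and adhesion, 3 were peaks (Mymk, Ncam1, Itga7) and none was a trough. Mymk, or myomaker, the membrane protein that fusing myoblasts need, was at 14.60, 15.03 and 14.96 in myotubes, 9.84, 10.33 and 10.06 in myoblasts, 8.33, 9.92 and 8.05 in EDL, and 8.33, 9.36 and 7.97 in soleus. The muscles spread widely and replicate 2 was the highest in both. Even so, myotubes lay 4.79 log2 units above myoblasts (SE 0.48; 27.6-fold; adjusted p = 8.44e-06). Ncam1, a cell adhesion molecule lost from the surface of innervated fibres, was at 14.99, 15.14 and 15.18 in myotubes, 11.47, 11.59 and 11.56 in myoblasts, 11.24, 11.50 and 11.56 in soleus, and 9.46, 9.70 and 9.80 in EDL. Myoblasts and soleus overlapped, 3.56 log2 units or more below myotubes. Of its 8 kept probes, 6 had myotubes highest. Itga7, the laminin-binding integrin of muscle, stood 1.84 log2 units above myoblasts (SE 0.07).

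Of 19 measured myogenic regulators, 3 were peaks and 2 were troughs. Myog, or myogenin, the factor that starts terminal differentiation, was at 16.52, 16.65 and 16.58 in myotubes, 12.69, 12.72 and 12.57 in myoblasts, 11.63, 11.45 and 11.60 in soleus, and 9.86, 9.67 and 9.75 in EDL. The groups did not overlap. Myotubes exceeded myoblasts by 3.93 log2 units (SE 0.08; 15.2-fold; adjusted p = 9.95e-11), and soleus exceeded EDL by 1.80. Tead4, a partner of the YAP and VGLL cofactors, stood 2.68 log2 units above myoblasts (SE 0.12) and Hes6, a Hes family repressor, 2.27 (SE 0.13). Myod1, in contrast, had means of 12.10 ± 0.14 in myoblasts, 11.79 ± 0.13 in myotubes, 10.04 ± 0.13 in EDL and 8.32 ± 0.12 in soleus (SD, n = 3), so it was neither.

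The troughs among the regulators were Eya1, a cofactor of homeodomain proteins that takes part in the adult fast programme, and Vgll2, a muscle-restricted cofactor of TEAD proteins. Eya1 was at 9.27, 9.53 and 9.59 in myotubes, 10.87, 11.13 and 11.15 in myoblasts, 11.98, 11.97 and 12.09 in EDL, and 11.13, 11.10 and 11.16 in soleus. It lay 1.59 log2 units below myoblasts (SE 0.11), and with spike-in scaling by 0.47 below its nearest group, under the limit. Vgll2 was at 10.27, 9.29 and 10.52 in myotubes and 11.09, 11.33 and 11.42 in myoblasts, with EDL at 13.38 to 13.59 and soleus at 14.91 to 15.12. Replicate 2 of the myotubes was its lowest array. The distance of 1.25 log2 units (SE 0.26) fell under the limit without that replicate, at 0.88, and with normexp, at 0.96.

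Genes of cell cycle exit formed another group of peaks, whereas genes of DNA replication and mitosis did not. Of 17 measured exit genes, 5 were peaks (Cdkn1a, Gadd45a, Rb1, Ccnd3, Gadd45b) and none was a trough, and all 5 were still called under the 4 other scalings and background corrections. Cdkn1a, the p21 inhibitor of cyclin-dependent kinases, was at 15.64, 15.95 and 15.98 in myotubes, 12.39, 12.50 and 12.79 in myoblasts, 9.84, 10.05 and 10.13 in soleus, and 8.77, 8.98 and 8.85 in EDL. The order of the groups was the same as for Myog and Chrng. Its distance to myoblasts was 3.30 log2 units (SE 0.14; 9.83-fold; adjusted p = 9.03e-09). Gadd45a, a growth arrest gene that also rises after denervation, was at 14.99, 14.95 and 14.95 in myotubes, 12.72, 12.50 and 12.44 in EDL, 11.75, 11.72 and 11.78 in myoblasts, and 11.31, 11.10 and 11.12 in soleus. It stood 2.41 log2 units above EDL (SE 0.09). The retinoblastoma gene Rb1 lay 1.79 above EDL, Ccnd3, the cyclin D that stays high in differentiating muscle, 1.73 above myoblasts, and Gadd45b 1.52 above EDL.

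None of 30 genes of DNA replication and mitosis was a peak or a trough. All 30 were called lower in myotubes than in myoblasts, with a median difference of -5.11 log2 units, while 20 were called higher than in EDL and 20 higher than in soleus. Mcm2, a subunit of the replicative helicase, had means of 12.97 in myoblasts, 8.96 in myotubes, 8.87 in EDL and 7.90 in soleus. Likewise none of 14 core enzymes of deoxynucleotide supply was a peak or a trough. Rrm2, the S-phase subunit of ribonucleotide reductase, had means of 13.94 ± 0.18, 11.20 ± 0.10, 6.80 ± 0.16 and 7.86 ± 0.10 in myoblasts, myotubes, EDL and soleus (SD, n = 3), so its myotube level was between. The p53-inducible subunit Rrm2b had means of 8.23 ± 0.15, 9.66 ± 0.19, 9.87 ± 0.12 and 9.51 ± 0.13 in the same order (SD, n = 3). Myotube means were the lowest of the 4 in Tk1, Dut, Dguok and Tymp and the highest in none of the 14.

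Of 27 genes for growth factor and myostatin signalling, 4 were peaks (Fst, Fgf21, H19, Tgfb3) and 2 were troughs (Igfbp3, Bmp4). Follistatin (Fst), which binds and blocks myostatin and activins, was at 12.87, 13.71 and 13.16 in myotubes, 8.30, 9.18 and 8.89 in myoblasts, 8.78, 8.74 and 8.70 in soleus, and 7.20, 7.72 and 7.66 in EDL. Myoblasts and soleus overlapped, and myotubes lay 4.46 log2 units above myoblasts (SE 0.26; 22.0-fold; adjusted p = 1.28e-07). Fgf21, a hormone secreted by stressed liver and muscle, was at 12.21, 12.35 and 12.10 in myotubes and 8.01, 8.25 and 7.85 in myoblasts, and had no EDL or soleus array well above background. It was 18.1-fold higher in myotubes than in myoblasts and at least 225-fold higher than in EDL. The imprinted non-coding RNA H19 was at 16.83, 16.59 and 16.63 in myotubes, 15.06, 15.19 and 15.16 in soleus, 14.16, 13.94 and 14.28 in myoblasts, and 12.66, 12.53 and 12.56 in EDL. Soleus was nearest for H19, 1.55 log2 units below (SE 0.10). Tgfb3 stood 1.43 above soleus (SE 0.16).

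Bmp4, a ligand that holds back differentiation, was at 6.84, 6.88 and 6.96 in myotubes, 9.14, 9.17 and 9.34 in myoblasts, 8.66, 8.68 and 8.62 in EDL, and 8.40, 8.39 and 8.47 in soleus. It lay 1.53 log2 units below soleus (SE 0.08), and 0.33 below its nearest group with spike-in scaling. Igfbp3, a binding protein of insulin-like growth factors, lay 1.55 below myoblasts (SE 0.20), but only 1 of its 3 kept probes had myotubes lowest, and over the mean of its probes it was -0.31 and not called. In the dystrophin complex, Sgcb was a peak beside Utrn, 1.07 log2 units above EDL, and 2 of its 3 kept probes had myotubes highest; over the mean of its probes it was 0.29 and not called.

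The 15 peaks with the largest fitted smallest difference, among those that passed the naming filters given under processing, are described next. Their order rests on fitted values where groups were below background, and with bounds in place of these some would rank below Mybph at 6.30. In 7 of the 15 (Isx, Slc44a4, Pkhd1, Chst13, Tcp11x2, Slc6a19, 2310002F09Rik) none of the 9 other arrays was well above background. The intestinal homeobox gene Isx led them, at 11.26, 11.46 and 11.45 in myotubes and 3.38 or less on every other array. Its fitted distance was 8.71 log2 units (SE 0.40), and as a bound it was at least 127-fold above EDL, 142-fold above soleus and 339-fold above myoblasts. Slc44a4, a choline-like transporter of epithelia, was at 11.17, 10.80 and 10.78 in myotubes and 2.95 or less elsewhere, at least 91.4-fold above EDL. Pkhd1, the gene of fibrocystin in kidney tubules and bile ducts, was at 10.19, 10.31 and 10.22 in myotubes, at least 57.1-fold above EDL, and all 3 of its kept probes had myotubes highest. Slc6a19, a neutral amino acid transporter of gut and kidney, was at 8.92, 9.28 and 9.20, at least 26.6-fold above EDL. The sulfotransferase gene Chst13 was at least 35.5-fold above EDL, Tcp11x2 at least 36.0-fold and 2310002F09Rik at least 19.9-fold.

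In 7 more, Myl4 aside, at least 1 array of another group was well above background. Otud7a, a deubiquitinase gene, was at 12.81, 13.04 and 12.94 in myotubes, 4.11, 4.37 and 3.70 in myoblasts, and 5.30, 5.65 and 5.27 in soleus, with EDL not well above background. It lay 7.52 log2 units above soleus (SE 0.21; 183-fold; adjusted p = 3.89e-10). The transcript 2310043M15Rik was at 12.38, 12.67 and 12.60 in myotubes and 4.80, 4.33 and 5.07 in myoblasts, 226-fold apart (adjusted p = 2.59e-09). Serpinb7, of a family of serine protease inhibitors, lay 162-fold above myoblasts, where 2 of 3 arrays were well above background, and BC051019 90.0-fold. Atp6v1c2, a proton pump subunit of epithelia, lay 88.9-fold above myoblasts. Crybg2 and Jakmip1 were well above background on 1 myoblast array, and Jakmip1 also on 1 EDL array. With normexp background correction the smallest differences of Pkhd1, Chst13, Tcp11x2, Jakmip1, Slc6a19 and 2310002F09Rik fell to between 1.33 and 2.62 log2 units, and none of these 6 was then called. For all but Jakmip1 these were smaller than the "at least" folds given above, which rest on the signal used here and are no guaranteed minimum.

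**Figure D3:**
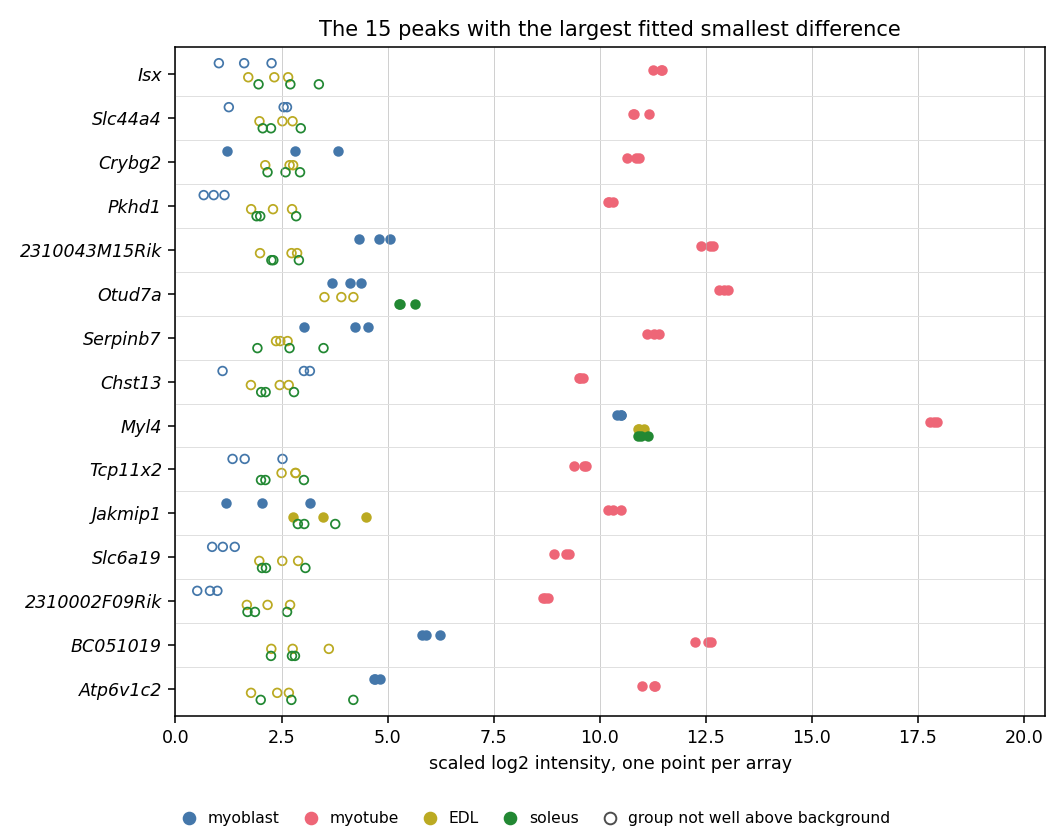
Scaled log2 intensity of the 15 peaks with the largest fitted distance from the nearest other group, among those that passed the naming filters. There is 1 point per array, open for groups below background throughout. The myotube points lie between 8.67 and 17.95, and apart from Myl4 all other points lie at 6.23 or below.

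Immediate early genes, which respond to serum and to stress within minutes, were measured in myotubes that had been detached and replated for 30 min. Of 19 measured genes, 4 were peaks (Socs3, Egr3, Fos, Junb) and none was a trough, and myotubes had the highest mean in 13. The list's median difference was 0.44 log2 units from myoblasts, 2.06 from EDL and 1.39 from soleus. Socs3, a feedback inhibitor of cytokine receptors, was at 16.04, 16.10 and 16.12 in myotubes, 11.75, 11.70 and 11.61 in myoblasts, 11.71, 11.67 and 11.75 in EDL, and 10.79, 10.67 and 10.85 in soleus. The myoblast and EDL arrays overlapped, and myotubes lay 4.38 log2 units above EDL (SE 0.08; 20.8-fold; adjusted p = 2.3e-11). Egr3 stood 2.61 above myoblasts (SE 0.12), Fos 1.39 above soleus (SE 0.17) and Junb 1.1 above myoblasts (SE 0.14). Egr3 fell to 1.46 with normexp and Junb to 0.74 with spike-in scaling, and neither was then called. Fosb was neither, with means of 7.35 in myoblasts and 7.04 in myotubes. Per the labels only the myotubes were replated, so replating and group cannot be told apart.

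Smaller numbers of peaks came from metabolic and organelle lists. Among 25 genes of sterol synthesis 3 of the later steps were peaks: Dhcr7 at 14.51, 14.60 and 14.80 in myotubes against 12.47, 12.64 and 12.79 in myoblasts and 10.23 to 11.02 in the muscles, Ebp and Tm7sf2. Dhcr7 lay 2.01 log2 units above myoblasts (SE 0.11), Ebp 1.55 above myoblasts and Tm7sf2 1.26 above EDL. Hmgcs1, at the start of the pathway, was neither, with means of 13.76 in myoblasts and 13.36 in myotubes. In the list of 23 lysosomal and autophagy genes the hydrolases Neu1 and Hexa were peaks, 1.14 and 1.04 log2 units above myoblasts, and Gpnmb was a trough, 2.08 below soleus. With spike-in scaling Ebp, Tm7sf2, Neu1 and Hexa kept myotubes highest but were not called, and Gpnmb was not called either, at -0.88, nor with normexp, at -1.04. Irf1, an interferon-responsive transcription factor, was a peak at 1.01 log2 units above myoblasts, and was not called without myotube replicate 2 (0.97), without replicate 2 of every group (0.98) or without myoblast replicate 1 (1.00, just under the limit). With spike-in scaling it was 0.65 and was not called.

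The troughs with the largest fitted distances, among those that passed the naming filters, were of varied kinds. Aqp1, a water channel of vessels and of muscle membranes, was at 7.75, 8.10 and 7.86 in myotubes, 14.84, 15.16 and 15.05 in myoblasts, 16.71, 16.88 and 16.75 in EDL, and 16.34, 16.52 and 16.37 in soleus. No group overlapped another, and myotubes lay 7.12 log2 units below myoblasts (SE 0.12; 139-fold; adjusted p = 1.78e-11), the largest distance of all troughs. Akap12, a scaffold of protein kinase A, was at 6.59, 6.33 and 6.38 in myotubes, 13.55, 13.41 and 13.43 in myoblasts, 11.80, 11.49 and 11.71 in EDL, and 12.11, 11.79 and 11.98 in soleus. The muscles overlapped each other, and EDL was 5.23 log2 units above myotubes (SE 0.12; 37.6-fold). Cxcl12, a chemokine that guides migrating progenitors, was at 7.43, 7.45 and 7.34 in myotubes, 12.04, 11.96 and 11.89 in myoblasts, 13.41, 13.25 and 13.35 in EDL, and 13.94, 13.92 and 13.84 in soleus, 4.56 log2 units apart at the nearest (SE 0.08; 23.5-fold).

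Several of these leading troughs had no myotube array well above background. Car8, a protein of the carbonic anhydrase family, was at 9.01, 9.10 and 9.40 in myoblasts, 8.20, 8.49 and 8.20 in EDL, and 8.74, 8.68 and 8.71 in soleus, and was at least 28.3-fold lower in myotubes than in EDL. Lmo1, a LIM-only transcription cofactor, was at least 5.9-fold lower than in myoblasts, Ccn3, a matricellular protein, at least 5.67-fold, and the calcium-activated chloride channel Ano1 at least 7.88-fold. The bounds of Prtg were at least 7.12-fold against soleus and 28.8-fold against myoblasts. Ccn3 and Prtg were not called with normexp, at -1.78 and -1.24. The genes of caveolae, the small membrane pits of muscle and endothelium, also differed: Cav1 was at 10.12, 10.18 and 10.18 in myotubes, 14.16, 14.23 and 14.28 in myoblasts, and 15.29 to 15.71 in the muscles. Cav1 lay 4.06 log2 units below myoblasts (SE 0.07; 16.7-fold), and Cav2 3.87 below (SE 0.15). Cavin2 was a trough too, 1.31 below EDL, while the muscle-specific Cavin4 was a peak, 1.75 above soleus. These 4 were among 7 measured Cav and Cavin genes (42.9% troughs and 14.3% peaks, against 3.72% and 5.16% of all genes). The family was examined after the results were seen.

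The kinase Map2k6, which activates p38, lay 4.38 log2 units below myoblasts (SE 0.16), and the Wnt antagonist Dkk2 4.29 below EDL (SE 0.23). Dkk2 was at 3.90, 3.27 and 2.85 in myotubes, 8.22, 8.41 and 8.45 in myoblasts, 7.38, 7.79 and 7.71 in EDL, and 11.38, 11.36 and 11.54 in soleus. Soleus was thus far above EDL, by 3.80. Loxl2, which cross-links collagen, lay 3.78 log2 units below EDL (SE 0.18) and Itpripl1 3.88 below soleus (SE 0.08).

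Apart from cell type markers, matrix and basement membrane genes held the largest share of troughs among the lists. Of 29 measured, 8 were troughs (Col4a1, Col4a2, Col3a1, Col6a3, Col1a2, Col1a1, Nid1, Timp3) and 2 were peaks (Timp2, Nid2). The median difference of the list was -1.18 log2 units from myoblasts, -0.51 from EDL and -0.43 from soleus. Col4a1, a chain of the basement membrane collagen, was at 8.44, 8.68 and 8.56 in myotubes, 12.10, 12.21 and 12.34 in myoblasts, 11.57, 11.62 and 11.49 in EDL, and 11.66, 11.74 and 11.67 in soleus. It lay 3.00 log2 units below EDL (SE 0.09; 8.00-fold; adjusted p = 6.1e-10). Col4a2, its partner chain encoded beside it, lay 2.24 below EDL (SE 0.08).

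The interstitial collagen Col3a1 was at 11.98, 12.27 and 12.42 in myotubes, 14.54, 14.79 and 15.04 in myoblasts, 14.72, 15.00 and 14.86 in EDL, and 14.38, 14.43 and 14.51 in soleus. Myoblasts overlapped EDL, and myotubes lay 2.22 log2 units below soleus (SE 0.15; 4.64-fold). Col1a2 lay 2.18 below soleus, Col6a3 2.21 below soleus and Col1a1 1.94 below myoblasts. Among all 39 measured collagen chains, a family counted after the results were seen, 10 were troughs (25.6%, against 3.72% of all genes) and none was a peak. All 10 kept myotubes lowest under each of the 4 other scalings and background corrections, but 4 of them were called with spike-in scaling, under which Col3a1 and Col6a3 were at -1.01 and not called. Timp2, an inhibitor of matrix proteases, went the other way, at 17.30, 17.24 and 17.25 in myotubes and 15.86, 16.34 and 15.98 in myoblasts, 1.21 log2 units apart (SE 0.16). Nid2 lay 1.05 above myoblasts, while its relative Nid1 lay 1.46 below soleus; both peaks were under the limit with spike-in scaling.

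**Figure D4:**
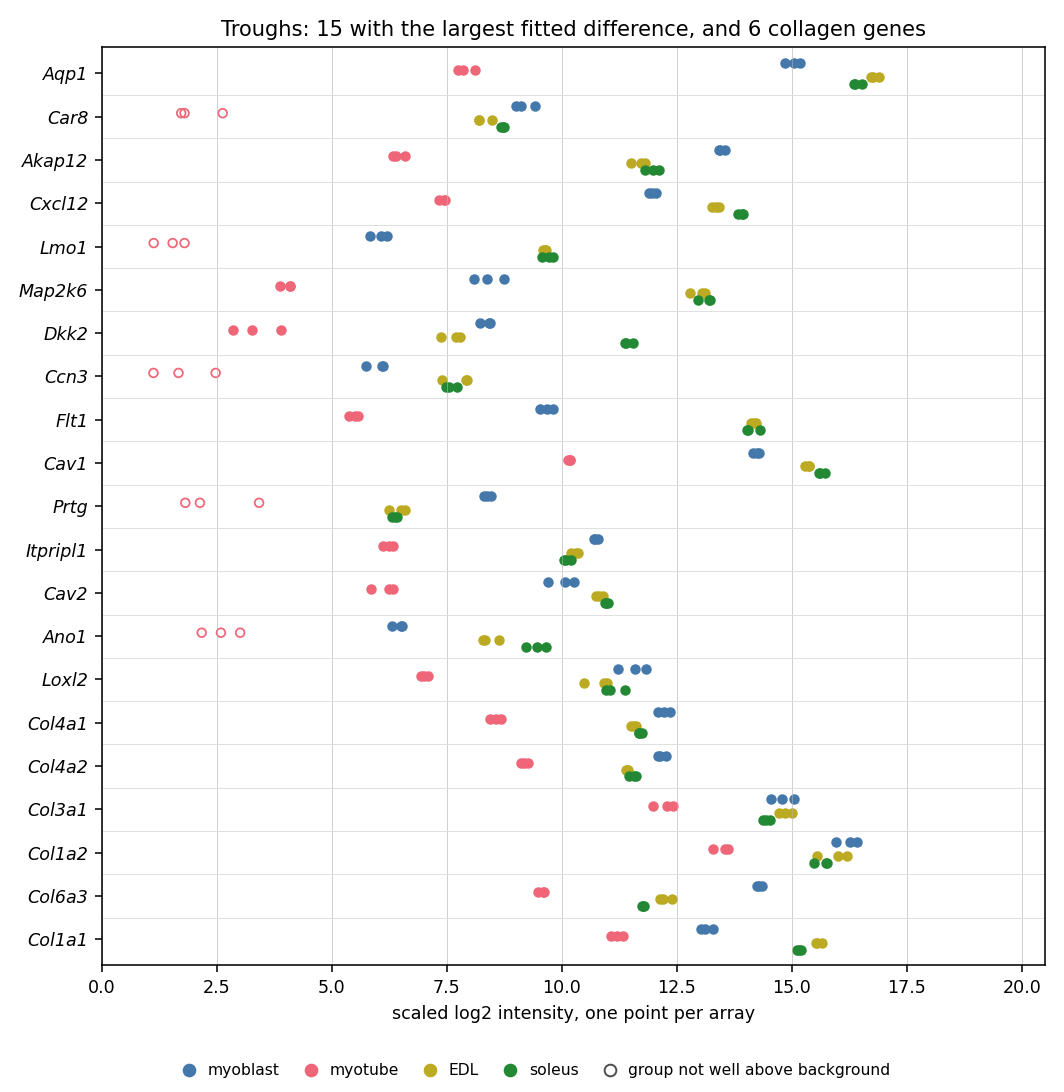
Scaled log2 intensity of 15 troughs and of 6 collagen genes, 1 point per array, open for groups below background throughout. The 15 lay farthest below the nearest other group by the fitted means, among troughs that passed the naming filters. In every row the 3 myotube points lie to the left of the other 9, which the filters required of the 15 troughs. Aqp1 shows the widest gap, 7.12 log2 units between the myotube and myoblast means.

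Repressors of differentiation and signals of the mesenchymal and mural lineages added troughs. Of 21 measured genes for Id proteins, Notch and mesenchymal repressors, 4 were troughs (Msc, Smad6, Notch3, Jag1) and none was a peak. Msc, or musculin, a repressor that competes with MyoD, was at 7.90, 7.47 and 7.51 in myoblasts, 5.02, 4.16 and 5.39 in EDL, and 5.19, 4.68 and 5.00 in soleus, and had no myotube array, 1 EDL array and 2 soleus arrays well above background. It was at least 17.8-fold lower in myotubes than in myoblasts and at least 2.61-fold lower than in EDL. Smad6, an inhibitor of BMP signalling, lay 1.62 log2 units below myoblasts (SE 0.20), the receptor Notch3 1.56 (SE 0.17) and the Notch ligand Jag1 1.28 (SE 0.17). Smad6 was at -0.59 with spike-in scaling and Msc at -0.97 with normexp, and neither was then called. Id1 was neither, although its mean was lowest in myotubes: 14.40 in myoblasts, 11.73 in myotubes, 12.40 in EDL and 13.01 in soleus. Of 22 SRF and YAP targets, only Cnn1, or calponin, was a trough, at 6.78, 6.93 and 7.01 in myotubes, 12.54, 12.74 and 12.66 in myoblasts, 8.70, 8.81 and 8.81 in EDL, and 9.66, 9.63 and 9.61 in soleus. Its distance was 1.87 log2 units to EDL (SE 0.09), and 0.92 to its nearest group with spike-in scaling.

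Of 19 cytoskeletal genes Syne2 and Lmnb1, both of the nuclear envelope, were troughs. Syne2 was at 10.20, 9.87 and 9.90 in myotubes, 12.20, 12.02 and 11.89 in myoblasts, 12.93, 12.57 and 12.59 in EDL, and 12.70, 12.34 and 12.38 in soleus. All 7 of its kept probes had myotubes lowest, by 2.05 log2 units against myoblasts (SE 0.15). Lmnb1, or lamin B1, lay 4.62 log2 units below myoblasts but only 1.12 below soleus (SE 0.10), and with spike-in scaling myotubes lay 0.09 above the lowest other group. Cth, the enzyme that makes cysteine from cystathionine, was the only trough among 24 genes of the amino acid response, 2.23 log2 units below myoblasts (SE 0.11). Among 23 interferon response genes, Ifih1 lay 1.72 below myoblasts (SE 0.17; not called with normexp, at -1.44), and Rsad2 met the rule with no myotube array well above background. As a bound Rsad2 was at least 1.86-fold lower than in myoblasts, which is under the limit.

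Whole muscle contains cell types that the cultures lack, and fewer cells of a type and less RNA per cell cannot be told apart in such samples. By the rule a trough lies below the myoblasts as well, which does not bear on its distance from muscle. Of 12 endothelial markers 1 was a trough: Flt1, at 5.38, 5.51 and 5.57 in myotubes, 9.68, 9.81 and 9.52 in myoblasts, and 14.02 to 14.31 in the muscles. All 12 were well above background in both muscles, and 5 (Pecam1, Cdh5, Emcn, Tie1, Erg) were not on any array of either culture group. The summed linear level of the 12 was 611 to 921 in myotubes, 1175 to 1372 in myoblasts, 53974 to 56208 in EDL and 61534 to 62294 in soleus.

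Fibroblast markers gave 2 troughs of 13, Cd34 and Ly6a, and their summed level was 84773 to 100458 in myotubes and 95534 to 99004 in myoblasts, which overlapped, against 189463 to 264976 in the muscles. Thy1, Tnmd and Dpt were not well above background in either culture group. Ly6a was at -0.58 and not called with spike-in scaling. Cd34 was at 9.60, 9.52 and 9.22 in myotubes, 12.97, 12.74 and 12.33 in myoblasts, and 13.96 to 14.50 in the muscles, 3.24 log2 units apart at the nearest (SE 0.18). It also stands in the satellite cell list, of whose 10 genes it was the only trough; that list summed to 7143 to 8149 in myotubes, 17916 to 23192 in myoblasts, 20308 to 26578 in EDL and 25052 to 29241 in soleus, with Calcr and Chodl not well above background in either culture group.

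Pericyte and smooth muscle markers gave 3 troughs of 9: Pdgfrb, Notch3 and Kcnj8. Pdgfrb was at 10.25, 10.23 and 10.18 in myotubes, 12.76, 12.66 and 12.56 in myoblasts, and 12.30 to 12.53 in the muscles, a distance of 2.16 log2 units (SE 0.08). Kcnj8 met the rule, but its bound against myoblasts was 1.9-fold, under the limit. The list summed to 170899 to 179667 in myotubes, 48782 to 58175 in myoblasts, and 342893 to 411871 in the muscles. The sum was thus higher in myotubes than in myoblasts, but a linear sum weighs the brightest genes most. By gene the median difference from myoblasts was -0.20 log2 units, with 3 called higher and 3 lower. Myotubes had the lowest mean of the groups in 5 of the 9. Rgs5 was not well above background in either culture group.

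Among macrophage and leukocyte markers Tyrobp alone of 14 met the rule, with both culture groups below background, so its order between them is not measured. The list summed to 526 to 706 in myotubes, 745 to 976 in myoblasts, 15322 to 15714 in EDL and 16143 to 16993 in soleus, and Ptprc, C1qa, C1qc and Tyrobp were not well above background in the cultures. Schwann cell markers gave 2 troughs of 7, Pmp22 and Mbp, with sums of 4218 to 4522 in myotubes, 12401 to 13466 in myoblasts, 17737 to 17902 in EDL and 36173 to 37787 in soleus, and all 7 were detected in myotubes on at least 1 array. Pmp22 was not called with spike-in scaling (-0.97), nor Mbp with normexp (-1.44). The adipocyte marker Plin4, of 7, was a trough, 2.15 log2 units below myoblasts (SE 0.14), and the list summed to 1378 to 1685 in myotubes, 3624 to 3977 in myoblasts, 132831 to 145855 in EDL and 188280 to 209330 in soleus, with Adipoq, Cfd and Plin1 not well above background in the cultures. Neither of 2 erythroid markers was a trough; they summed to 89 to 144 in the cultures, where the groups overlapped and Alas2 was not well above background, and 13215 to 35612 in the muscles. The part of other cell types in the distance between myotubes and muscle was not tested. No marker list held a peak.

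No peak and no trough was found in 9 of the 34 lists: beside adult fast sarcomere, replication, deoxynucleotide supply and erythroid genes, these were glycolysis and glycogen (25 genes), oxidative phosphorylation (30), cytosolic ribosomal proteins (30), proteasome (27) and the unfolded protein response (20). Proteasome genes had myotubes highest in 19 of 27 by means alone, with median differences of 0.38, 0.33 and 0.47 log2 units, all under the limit. Oxidative phosphorylation genes were called lower than in EDL in 28 of 30 but not lower than in myoblasts in any. In all, 643 of the 657 genes of the lists were measured, with 45 peaks and 33 troughs among them. Of all genes tested 5.16% were peaks and 3.72% troughs. At these shares a list of 2 to 30 genes would hold few or none, so an empty list is no result by itself.

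**Figure D5:**
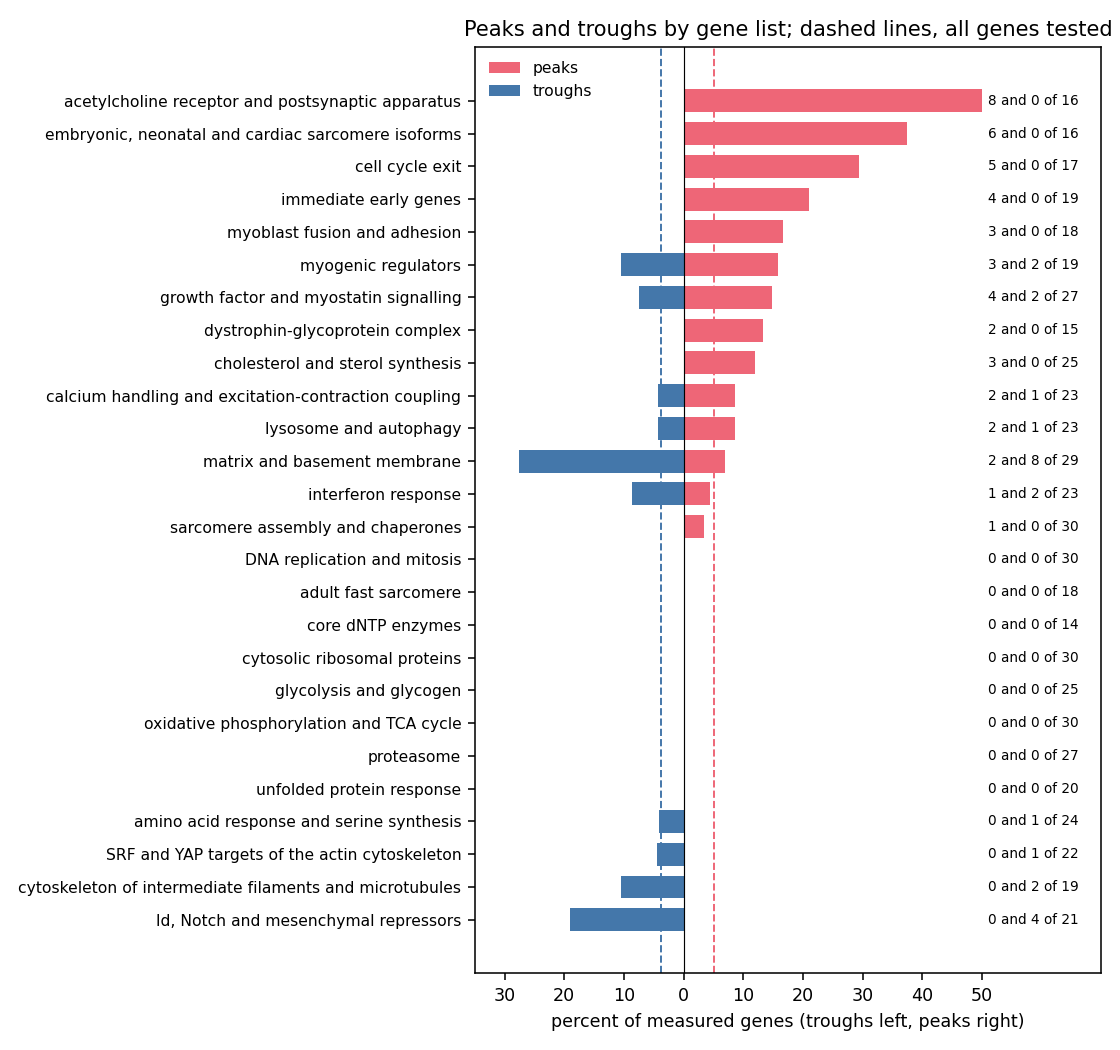
Share of the measured genes of each list, marker lists left out, that were peaks (bars to the right) or troughs (bars to the left), in percent, with counts of peaks and troughs at right; dashed lines mark 5.16% and 3.72% for all 18869 genes tested. Among these the synapse list has the longest bar of peaks, 8 of 16, and the matrix list the longest of troughs, 8 of 29.

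At the rule's threshold, the peaks just inside were Casp1 (1.00 log2 units), Secisbp2 (1.00) and S100a16 (1.01). Among genes with myotubes highest that were not called, the largest smallest differences were those of Plg, Gbp2b and Kif9, larger but noisier. Plg was at 2.13 log2 units (limma adjusted p = 0.0513), Gbp2b at 2.08 (0.0582) and Kif9 at 2.03 (0.0698). The troughs just inside were Coq7 (-1.0), Erdr1 (-1.0) and Nudt6 (-1.01). Among genes with myotubes lowest that were not called, LOC677447, Cts7 and Pdzph1 had the largest distances. They were at -2.10 (limma adjusted p = 0.0834), -1.92 (0.0862) and -1.67 (0.175).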

How the data were processed

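RNA of 3 samples each of C2C12 myoblasts, C2C12 myotubes, EDL and soleus was measured on 12 one-colour Agilent mouse arrays. The deposited scanner files hold a processed signal per spot, an intensity that Agilent Feature Extraction 10.5.1.1 had background-subtracted and detrended, per the file headers; nothing in the headers scales arrays to each other. The authors' value table, also a linear intensity, with its between-array scaling not given in the sources used here, served as an alternative.

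Control and outlier spots were left out, spots of a probe averaged, and log2 signals shifted to a common 75th percentile (9.65). A probe was kept where every array of some group had it well above background (28617 probes), and the brightest kept probe stood for its gene (18869 genes). Of 322 peaks with several kept probes, all probes had myotubes highest in 266. Of 229 such troughs, all probes had myotubes lowest in 174. In the rest at least 1 kept probe did not show the order of the brightest. Names came from the files through a RefSeq table, and 129 peaks and 165 troughs kept the file's name. limma 3.58.1 in R 4.3.3 fitted 4 group means, with Benjamini-Hochberg adjustment over all genes in each contrast and no block. The rule for peaks and troughs is a joint call in 3 contrasts. The fit was tested on simulated data. An "at least" fold sets a group not well above background at the lowest signal detected on its arrays, or at the probe's own where that is higher. It is a bound for the processed signal and no guaranteed minimum, since a probe not well above background can exceed that lowest signal. The number of arrays limits the precision.

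Named by rule were 15 peaks and 15 troughs, up to 4 peaks, 4 troughs and 1 other gene per list, and all enzymes of deoxynucleotide supply (143 genes in all). The 15 of each class had the largest smallest difference among genes that passed filters. A gene needed a symbol of the RefSeq table and no overlap of its myotube arrays with the others. A peak had to be well above background on all myotube arrays, and a trough on all other arrays. Members and lists were chosen with earlier results of these data known; further list members, families and neighbours were named after their values were seen. Promoter windows are those of RefSeq, GRCm38.p6. Same-numbered samples share a slide, and in all 18 such pairs the deviations from the group means correlated (r 0.22 to 0.66), so the numbers pair the arrays. Alternatives tried were normexp background correction, quantile and spike-in scaling, the authors' values, other filters on dim probes, the mean over probes, other minimum differences, a single adjustment of the largest p, the replicate block, fits of only the compared groups, and leaving out replicates.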

Additional observations from a re-analysis of the deposited data

Results flagged for a closer look

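The 2 adult muscles differed from each other in 20 of the named 53 peaks and 43 troughs, by limma's soleus minus EDL contrast at the same limits. In these the distance of myotubes from muscle depends on which muscle is taken. Soleus was the higher in 16. The named genes were chosen with earlier results known, so this lean is not a result about muscle. Of all genes tested, soleus was above EDL in 5% and below it in 4.7%. For all peaks these shares were 9.9% and 4.4%, and for all troughs 5.8% and 6.6%. Among the peaks, soleus was nearer to the myotubes by 3.49 log2 units in Casq2, 2.55 in H19, 1.80 in Myog, 1.78 in Ncam1, 1.65 in Chrng, 1.62 in Musk, 1.54 in Otud7a, 1.48 in Fos, 1.46 in Tead4, 1.21 in Fst and 1.14 in Cdkn1a. EDL was nearer in Mybph (-2.44), Ankrd1 (-1.57), Gadd45a (-1.37) and Chrnb1 (-1.25). Among the troughs, soleus was farther above the myotubes than EDL by 3.80 in Dkk2, 1.53 in Vgll2, 1.34 in Mbp, 1.08 in Pmp22 and 1.03 in Ano1. EDL was not well above background for Otud7a, so its value there is not a measured difference.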

How the results depend on the processing

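Counts of peaks and troughs, 973 and 702 as reported, came to 491 and 275 with normexp background correction, in which 743 of the peaks kept myotubes highest and all 702 troughs kept them lowest. Of the 277 peaks with a group below background 17 were called under normexp, against 405 of the other 696. The normexp correction used an offset of 50, a constant added to the signals. Before scaling, the 75th percentile of the processed signal was lower on every muscle array than on every culture array. The cause of these losses, and the part of the offset in them, was not tested. Spike-in scaling left 370 troughs, and a filter for probes well above background on all 12 arrays, which fits 13845 genes, left 551 and 448. No minimum difference gave 2243 and 1842, a minimum of 2 log2 units 411 and 210, and the order of means alone 3814 and 4574. The single contrasts, myotube against myoblast, EDL and soleus, had 1652, 2257 and 2363 genes called higher and 1778, 2644 and 2472 lower with normexp. With spike-in scaling 2145, 7234 and 8889 were higher, and 2531 and 2186 lower than EDL and soleus. With no minimum difference 6283, 6254 and 6327 were higher and 5712 lower than myoblasts; with a minimum of 2, 1718, 1751 and 1651 were higher and 1309, 2811 and 2669 lower. Without a filter on dim probes 7936 were lower than EDL; with the strict filter 2377 were higher than myoblasts, and 3356 and 3058 lower than EDL and soleus. The replicate block gave 987 peaks and 721 troughs, 971 and 702 of them shared, and the pairing changed no call of a named gene. Leaving out 1 replicate gave 911 to 1003 peaks and 674 to 754 troughs. Setting groups below background at their bound, an alternative chosen after seeing the data, gave 898 and 567.

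Of the named genes, 34 of 53 peaks and 22 of 43 troughs were called under each alternative checked gene by gene in which they could be fitted. That check left out the other minimum differences, the single adjustment of the largest p and the bounds. The single adjustment gave 904 peaks and 639 troughs in all. The strict filter fitted 37 and 30 of the named genes, the authors' values 43 and 42. Lmnb1 reversed with spike-in scaling, to 0.086. Vgll2 and Irf1 were lost when a replicate was left out (Vgll2 -0.86 and -0.88; Irf1 0.97 to 1.00). In 7 of the 15 leading peaks every other group is below background, so that their distances are bounds for the processed signal.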

Other observations

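Some peaks stood next to each other on the chromosome. Among genes with a place in the RefSeq order, 200 of 843 peaks (23.7%) were adjacent to another gene tested that was a peak, against 10.6% of all 15216 placed genes; for troughs it was 73 of 537 (13.6%) against 6.85%. Several pairs joined a gene of the lists to one outside them. Slc2a6, a hexose transporter gene, Mymk and Adamtsl2 stand in a row, with smallest differences of 5.67, 4.79 and 3.23 log2 units. Chil1, a chitinase-like protein gene, stands beside Mybph (4.61 and 6.30), Ppfia4 beside Myog (4.49 and 3.93), Rab44 beside Cdkn1a (3.59 and 3.30), and Prss56 beside the pair Chrnd and Chrng (1.40, 3.95 and 5.37). Members of tandem families, such as Serpinb1a and Serpinb1c (2.95 and 3.45) or Gsta1 and Gsta2 (3.72 and 3.52), are near-identical in places, and probes may not separate them. With normexp background correction the smallest differences were 1.57 for Chil1, 0.43 for Prss56 and 0.42 for Rab44, and none of these 3 was called, while Slc2a6, Mymk, Adamtsl2 and Ppfia4 were. These pairs were picked after their values were seen.

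Gene families were also counted, after the results were seen. Of all genes tested 5.16% were peaks and 3.72% troughs. Further families, among them zinc finger genes and olfactory receptors, were counted but are not described. Solute carriers had 26 peaks and 14 troughs among 285 measured (9.12% and 4.91%), with Slc10a4 at 9.69 and Slc2a6 at 12.3 in myotubes among the peaks, and Slc43a3, at 7.44 in myotubes and 11.2 in myoblasts, among the troughs. With normexp background correction 19 of the 26 kept myotubes highest and 8 were called, Slc10a4 not among the called, and 4 of the 14 troughs were called. Serine protease inhibitors of the Serpin family had 8 peaks (22.9%) and no trough among 35. Serpinb1a was at 15.5 in myotubes, 12.5 in myoblasts, 9.38 in EDL and 9.89 in soleus. With normexp 4 of the 8 were called, and Serpina9 and Serpinb9c were no longer highest in myotubes. Potassium channel genes had 6 troughs and 2 peaks among 58 (10.3% and 3.45%). With normexp none of these 8 was called and Kcnn3 was no longer highest in myotubes; with spike-in scaling 2 of the 6 troughs were called and Kcnip3 was no longer lowest. Ribosomal protein genes had no peak and no trough among 79.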
